A study of Mus musculus with 6 samples.

Results

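The replication-dependent histone genes encode the core histones H2A, H2B, H3 and H4, which form the nucleosome, and the linker histone H1, which binds the DNA between nucleosomes. They were taken as every protein-coding gene whose mouse symbol starts with Hist1h, Hist2h, Hist3h or Hist4h or has the newer form of those names. This gave 67 of the 52636 genes in the deposited count table, of which 6 encode H1, 18 encode H2A, 18 encode H2B, 12 encode H3 and 13 encode H4. Gene models came from the GENCODE annotation of mouse build GRCm38 (mm10), where the Hist1 cluster holds 54 of these genes on chromosome 13 between 21715763 and 23934851. The Hist2 cluster holds 10 genes on chromosome 3 between 96219865 and 96270132, the Hist3 cluster 2 genes on chromosome 11 between 58948920 and 58956830, and Hist4h4 lies alone on chromosome 6 between 136801553 and 136804415.

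Cells make the products of these genes mainly in S phase, when new DNA is packed into chromatin. Their mRNAs as a rule have no introns and no poly-A tail. They end a few bases after a short stem-loop, which the stem-loop binding protein SLBP holds, and U7 snRNP guides the cut that makes this end. Some of these genes also carry a longer 3′ end with an ordinary poly-A site, and such polyadenylated histone mRNAs are known from differentiated cells and from tumour cells. The libraries here were primed on poly-A, so a count stands for a polyadenylated form of the mRNA or for a transcript primed at an internal run of A, and the total histone mRNA of the cells was not measured.

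J110 and SSM3 are mouse mammary tumour cell lines. J110 came from transgenic mice in which the MMTV LTR, a promoter active in mammary epithelium, drives a cDNA of AIB1, the coactivator encoded by Ncoa3. SSM3 came from mammary tumours of 129SvEv mice, and each line has 3 biological replicates. The lines were also kept in different media, with less serum for J110 and more CO2 for SSM3, so the line and its culture cannot be told apart. All differences are given as SSM3 minus J110, and p-values measure the spread between cultures of a line.

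Total counts ranged from 5209740 to 5416305 in the J110 libraries and from 4200785 to 4792941 in the SSM3 libraries. Ncoa3 had 110, 106 and 102 counts in J110 and 181, 199 and 186 in SSM3. Where its tags lie relative to the transgene was not examined, so it does not check a label. The 5 epithelial markers summed to 2677 to 2766 counts scaled to library size (CPM) in J110 and 11878 to 13073 CPM in SSM3, and the epithelial marker Epcam had 2, 1 and 7 counts in J110 against 2376 to 2412 in SSM3. Most of the SSM3 sum came from Krt19 (18.6 ± 9.83 and 7412 ± 363 CPM in J110 and SSM3), and Krt18 went the other way, from 1430 ± 18.1 to 970 ± 37.3 CPM. The 3 leukocyte markers summed to 14.8 to 22.2 CPM in J110, nearly all from Cd68, and to 1.19 to 2.0 CPM in SSM3. The 3 endothelial, 4 fibroblast and 2 erythroid markers stayed at or below 11 counts in every library, with Col1a2 and Hbb-bs at 0. Genes of the ribosomal RNA locus on chromosome 17 held 15.1% to 17.2% of counts in J110 and 0.779% to 1.27% in SSM3, and scaling with that locus left out gave the same numbers of histone calls, 9 higher and 2 lower.

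The stem-loop is the feature that the group shares, and it was searched in the annotated transcripts as 16 bases of the form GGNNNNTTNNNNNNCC whose 6-base arms pair without a mismatch. It stood in a transcript of 44 of the 67 genes and of 107 of 21752 other protein-coding genes (0.492%), although those have longer transcripts, with a median of 2894.5 bases against 534. The sequences below show forms found in each family, with the stem-loop in capitals between its flanking bases, 5′ to 3′. They come from the transcripts of 6 genes tested between the lines and of Hist1h3c, which had too few counts.
Hist1h1c (H1): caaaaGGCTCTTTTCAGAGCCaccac
Hist3h2a (H2A): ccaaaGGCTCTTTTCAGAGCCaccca
Hist1h2be (H2B): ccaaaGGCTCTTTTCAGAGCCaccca
Hist1h3d (H3): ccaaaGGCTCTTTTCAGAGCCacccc
Hist1h4h (H4): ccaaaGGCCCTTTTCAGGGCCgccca
Hist1h4i (H4): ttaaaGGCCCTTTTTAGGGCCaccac
Hist1h3c (H3): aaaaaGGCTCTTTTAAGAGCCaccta
The form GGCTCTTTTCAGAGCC occurred in 26 genes of the H1, H2A, H2B and H3 families and in none of the H4 family. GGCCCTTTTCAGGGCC occurred in 7 genes, all H4, and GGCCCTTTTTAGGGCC in Hist1h4i and Hist2h4. The form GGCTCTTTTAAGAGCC occurred in 6 genes, none of which had enough counts to be tested. In the other 23 genes the annotated transcript, with a median length of 411 bases, holds no such form, and sequence past an annotated end was not searched.

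Few of the 67 genes had counts of any size in these libraries, and together they took 0.0232% to 0.0243% of all counts in J110 and 0.0334% to 0.0360% in SSM3. Their CPM, scaled with TMM factors and summed over the 67 genes, were 253.7, 250.4 and 252.5 in J110 and 322.4, 311.7 and 343.4 in SSM3. The 3 SSM3 sums lie above the 3 J110 sums, with means of 326 ± 16.1 and 252 ± 1.67 (SD, n = 3) and a log2 ratio of 0.37. A larger share of cells in S phase and more polyadenylated histone RNA per cell cannot be told apart in such bulk libraries. The H3 genes summed to 17.8 ± 1.21 CPM in J110 and 36.7 ± 8.86 in SSM3, and the H4 genes to 16.6 ± 0.901 and 31.4 ± 0.613, with no overlap between the lines in either family. In both families most of this difference lay in a single gene. Hist1h3d alone had 11.6 ± 0.403 and 30.5 ± 7.81 CPM, and Hist1h4i alone 7.64 ± 1.26 and 19.9 ± 2.64. The H1 genes summed to 65.4 ± 4.91 and 80.3 ± 13.6 CPM, the H2A genes to 58.2 ± 1.54 and 68.5 ± 16.1, and the H2B genes to 94.2 ± 3.33 and 109 ± 1.87. The H1 and H2A sums overlapped between the lines and the H2B sums did not, and none of these sums was tested.

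Counts were concentrated on 5 genes, which held from 67.9% to 72.7% of the group's counts in each library. They were Hist1h2bc (H2B), Hist1h1c (H1), Hist1h2ap (H2A), Hist1h3d (H3) and Hist3h2a (H2A). At the other end, Hist3h2ba, Hist1h4m, Hist1h2br, Hist1h1t and Hist1h2ba had no count in any library, which allows up to 0.578 to 0.668 CPM, the level of 3 counts. Hist1h1t and Hist1h2ba are known as testis-specific linker and H2B histones. After the filter on low counts, 16 of the 67 genes were tested, and the other 51 held 8.09% of the group's counts, with at most 15 counts in any library.

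**Figure D1:**
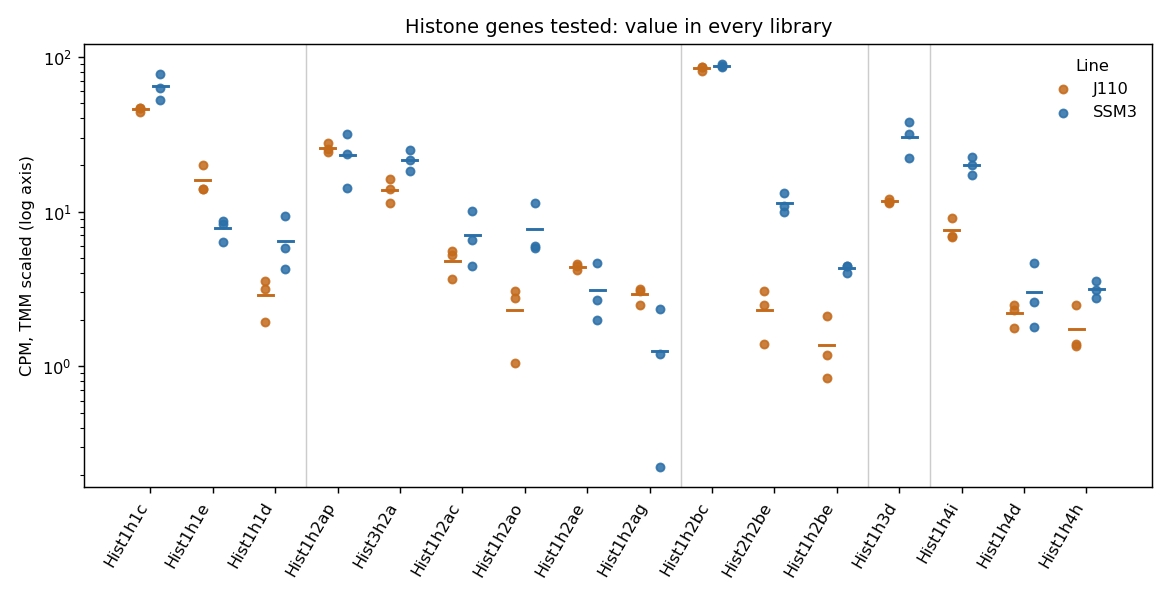
TMM-scaled CPM (log axis) of the 16 histone genes tested, 1 point per library and a bar at the mean of each line, with vertical lines between the H1, H2A, H2B, H3 and H4 families. Hist2h2be, Hist1h3d and Hist1h4i show SSM3 points well above those of J110, Hist1h1e shows the opposite, and for Hist1h2bc the points of the lines lie at nearly the same level.

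Of the 16 genes tested, 9 rose in SSM3, 2 fell and 5 did not pass an adjusted p of 0.05 in edgeR's quasi-likelihood test with Benjamini-Hochberg adjustment. Over all 12284 genes tested, 77.9% passed, 38.6% higher and 39.2% lower in SSM3. Among the histone genes tested 68.8% passed, 56.2% higher and 12.5% lower, and the median log2 fold change of the 16 was 0.60 against −0.014 over all genes. These shares do not describe all 67 genes. Hist1h2be, Hist2h2be, Hist1h2ao, Hist1h4h and Hist1h2ag had 10 or more counts in all libraries of only 1 line, so they entered the test through the line in which they were high, and all 5 are among the 11 called. In 9 genes all SSM3 libraries lay above all J110 libraries, and in 2 all lay below, against 39.4% and 40.3% of all genes tested, or 79.6% in either direction.

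**Figure D2:**
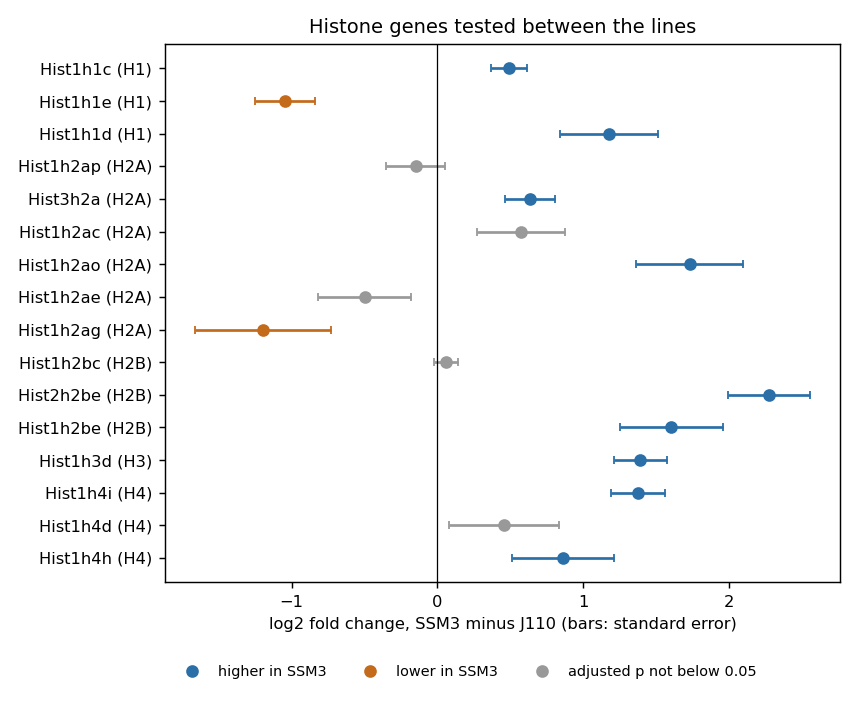
Log2 fold change of the 16 histone genes tested, SSM3 minus J110, with the standard error as a bar and the family after each symbol. Points to the right of 0 were higher in SSM3: 9 passed the adjusted p of 0.05 on that side, Hist1h1e and Hist1h2ag on the other, and 5 on neither.

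The H1 genes moved in both directions. Hist1h1c, a widely used somatic H1 subtype at chromosome 13, 23738808 to 23740367, had 229, 234 and 224 counts in J110 and 348, 248 and 315 in SSM3. Every SSM3 library lay above every J110 library on the CPM scale, with SSM3 replicate 2 the closest, and the means were 45.7 ± 1.38 and 64.3 ± 12.5 CPM (log2 fold change 0.49, SE 0.12, adjusted p = 0.00156). Hist1h1e, another somatic subtype at 23620629 to 23622558, had 73, 71 and 96 counts in J110 and 39, 39 and 32 in SSM3. It was lower in all SSM3 libraries, at 7.78 ± 1.24 against 16 ± 3.45 CPM (log2 fold change −1.04, SE 0.21, adjusted p = 0.000229). Hist1h1d, with 10, 16 and 17 counts in J110 and 26, 20 and 47 in SSM3, was higher in SSM3 (log2 fold change 1.18, SE 0.34, adjusted p = 0.00456), with SSM3 replicate 3 above the other SSM3 libraries. Hist1h1b, another somatic subtype, was too low for the filter. It had no count in any J110 library and 8, 6 and 9 counts in SSM3, at least 2.58-fold above the level of 3 counts per library.

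The H2A genes included the least even values between replicates. Hist3h2a, at chromosome 11, 58954685 to 58956830, had 84, 71 and 54 counts in J110 and 82, 101 and 125 in SSM3. After scaling for depth the lines did not overlap, at 13.8 ± 2.47 and 21.5 ± 3.31 CPM (log2 fold change 0.64, SE 0.17, adjusted p = 0.00293). Its exons share 708 bases with Trim17 on the same strand, a gene with 4 to 10 counts in each library. Hist1h2ap, at chromosome 13, 21833026 to 21833507, had 132, 122 and 132 counts in J110 and 106, 67 and 158 in SSM3. The SSM3 libraries lay on both sides of the J110 libraries, and the gene was not called, at 25.7 ± 1.72 and 23.1 ± 8.62 CPM (log2 fold change −0.15, SE 0.20, adjusted p = 0.513). Without SSM3 replicate 3, the highest library, it was called lower at −0.44 (adjusted p = 0.0247).

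Hist1h2ao and Hist1h2ag, both H2A genes of low count, moved in opposite directions. Hist1h2ao had 16, 14 and 5 counts in J110 and 26, 28 and 57 in SSM3, and every SSM3 library lay above J110, at 7.69 ± 3.16 against 2.30 ± 1.10 CPM (log2 fold change 1.73, SE 0.37, adjusted p = 0.000437). Hist1h2ag had 16, 16 and 12 counts in J110 and 1, 11 and 6 in SSM3 (log2 fold change −1.19, SE 0.46, adjusted p = 0.0277). The SSM3 libraries of Hist1h2ag spread widely below J110, and the call was lost without J110 replicate 1 (adjusted p = 0.0707), J110 replicate 2 (0.0779), SSM3 replicate 1 (0.129, log2 fold change −0.73) or SSM3 replicate 3 (0.0560). Without SSM3 replicate 2 its log2 fold change was −1.95. Hist1h2ae, with 66 counts in J110 and 44 in SSM3 over the 3 libraries, had a log2 fold change of −0.50 (adjusted p = 0.163) and was called lower without SSM3 replicate 2, at −0.91 (adjusted p = 0.0284). Hist1h2ac, with 72 and 102 counts, had a log2 fold change of 0.57 (adjusted p = 0.0937) and was called higher without SSM3 replicate 1, at 0.81 (adjusted p = 0.0165).

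Of the 16 genes tested, the H2B genes held both the one with the most counts and the one with the largest log2 fold change. Hist1h2bc, at chromosome 13, 23684199 to 23692908, had 448, 432 and 385 counts in J110 and 402, 403 and 439 in SSM3. Its levels of 84.1 ± 3.25 and 87.5 ± 1.97 CPM overlapped between the lines (log2 fold change 0.06, SE 0.08, adjusted p = 0.533). Hist2h2be, at chromosome 3, 96221119 to 96223738, had 16, 7 and 12 counts in J110 and 49, 62 and 50 in SSM3. The lines were far apart in this gene, at 2.32 ± 0.864 and 11.3 ± 1.65 CPM (log2 fold change 2.27, SE 0.28, adjusted p = 1.47e-06). It was the only gene of the 16 tested that changed more than 4-fold at an adjusted p below 0.05, which 21.7% of all genes tested did. Hist1h2be had 11, 6 and 4 counts in J110 and 20, 21 and 20 in SSM3 (log2 fold change 1.6, SE 0.35, adjusted p = 0.000591). Its gene model shares 496 exon bases on the same strand with Hist1h1e, which changed in the opposite direction.

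A single H3 gene and 3 H4 genes passed the filter. Hist1h3d, at chromosome 13, 23575763 to 23577011, had 60, 61 and 54 counts in J110 and 100, 178 and 158 in SSM3. All SSM3 libraries were higher, SSM3 replicate 1 least so, at 30.5 ± 7.81 against 11.6 ± 0.403 CPM (log2 fold change 1.39, SE 0.18, adjusted p = 3.23e-06). Hist1h4i, at chromosome 13, 22040636 to 22041362, had 36, 46 and 33 counts in J110 and 101, 81 and 100 in SSM3. Here too the lines did not overlap, at 7.64 ± 1.26 and 19.9 ± 2.64 CPM (log2 fold change 1.37, SE 0.18, adjusted p = 3.93e-06). Hist1h4h, with 7, 7 and 12 counts in J110 and 14, 13 and 18 in SSM3, passed the threshold at a log2 fold change of 0.86 (SE 0.35, adjusted p = 0.0352). That call was lost under 9 alternatives and kept under 7. It was lost in DESeq2 (adjusted p = 0.152), and without J110 replicate 1 (adjusted p = 0.133), J110 replicate 2 (0.121), SSM3 replicate 1 (0.0659) or SSM3 replicate 3 (0.120). Hist1h4d, with 13, 9 and 11 counts in J110 and 8, 22 and 13 in SSM3, overlapped between the lines (log2 fold change 0.46, adjusted p = 0.280).

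Below the filter, 24 of the 51 genes had at most 3 counts in every library, the 5 without a count among them, and 27 reached 4 or more in a library. Of the 46 with a count, all SSM3 libraries lay above all J110 libraries in 7 (15.2%) and below them in 5 (10.9%), against 9.42% and 12.3% of the 10308 genes with a count that did not pass the filter. Hist1h4b, an H4 gene, had 6, 10 and 7 counts in J110 and 1, 0 and 1 in SSM3, at least 2.29-fold below J110 when SSM3 is set at 3 counts per library. The highest of the 51 in total was the H3 gene Hist2h3c1, with 4, 10 and 5 counts in J110 and 9, 15 and 8 in SSM3, which overlapped between the lines. When every gene with a count in any library was tested, 62 of the 67 entered and 15 were called, 11 higher (17.7%) and 4 lower (6.45%), against 24.1% and 25.2% of all 22592 genes in that test. Hist1h1b, Hist2h2aa1 and Hist1h2ac (adjusted p = 0.0470) were then called higher and Hist2h2bb and Hist1h4b lower, while Hist1h4h was no longer called (adjusted p = 0.0537). Hist1h1b entered this test through its SSM3 counts alone. Hist2h2aa1 shares 529 exon bases on the same strand with Gm20634, and Hist2h2bb shares 226 with Gm42743.

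The annotated 3′ ends of the genes differed in how far they run past the stem-loop. In 22 genes the transcript goes on for more than 100 bases after it, and 10 of these were tested, with 6 higher, 1 lower and 3 not called. In another 22 it ends within 100 bases, and 4 of these were tested, with 2 higher, 1 lower and 1 not called. Only Hist1h2bc and Hist2h2be were tested among the 23 genes with no stem-loop in the annotated transcript, the first not called and the second higher. Over all genes tested, 38.6% were higher and 39.2% lower in SSM3. With so few genes tested in each class, the calls do not compare the classes. The genes that run more than 100 bases past the stem-loop held 51.1% of the group's counts and had a median of 45.5 counts over the 6 libraries, against 16.5 for those that end within 100 bases and 5.0 for those without a stem-loop. That share leaves out Hist1h2bc and Hist2h2be, with 2509 and 196 counts. They have no stem-loop but also long annotated ends, with 742 and 2192 bases after the stop codon. The transcript of Hist1h1c runs 840 bases past its stem-loop, that of Hist1h3d 752, that of Hist3h2a 1643 and that of Hist1h4i 330. A longer annotated end also gives a 3′ tag more sequence on which to be counted, with a median transcript length of 1255 bases against 481, and these cannot be told apart here.

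**Figure D3:**
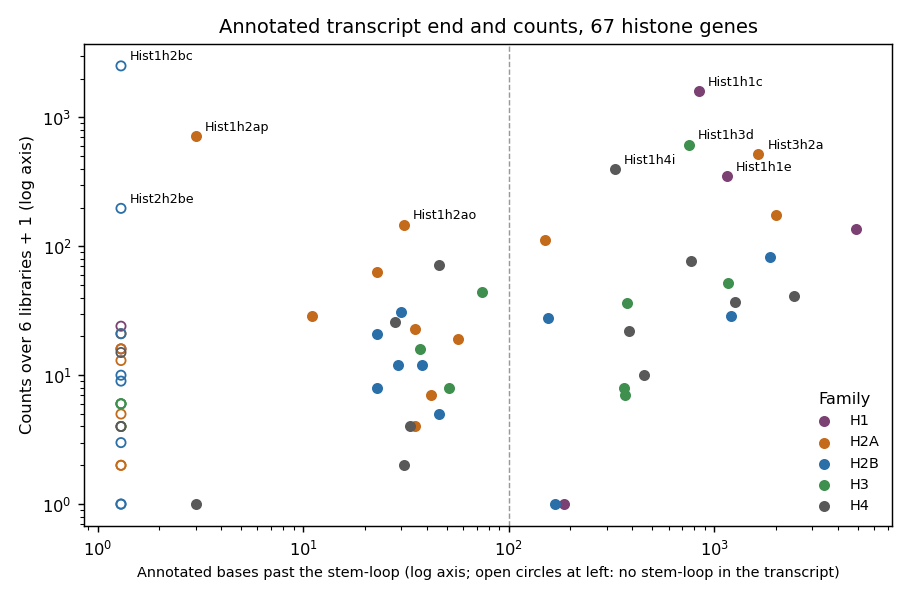
Counts over the 6 libraries plus 1 (log axis) of the 67 histone genes against the annotated bases past the stem-loop (log axis), coloured by family, with a dashed line at 100 bases and open circles at the left for the 23 genes with no stem-loop in the transcript. Most genes with over 100 counts lie to the right of the line, and Hist1h2bc, Hist1h2ap, Hist2h2be and Hist1h2ao lie to its left.

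The genes with high counts and no long annotated end were looked at one by one. Hist1h2bc has 2 annotated exons, and its transcript carries 742 bases after the stop codon without a stem-loop. Hist2h2be is a single exon with 2192 bases after the stop codon and no stem-loop of the form searched. Hist1h2ap and Hist1h2ao end 3 and 31 bases after the stem-loop, and both carry a run of 12 A directly before it, which is shown here in capitals because an A run can prime a library made on poly-A. Hist1h2ac and Hist1h2be have such runs past the stem-loop, with 15 and 11 A.
Hist1h2ap: cccgaaaagAAAAAAAAAAAAggctctttt
Hist1h2ao: cccgaaaagAAAAAAAAAAAAggctctttt
Hist1h2ac: ctaggagAAAAAAAAAAAAAAAgttctat
Hist1h2be: gagacctggAAAAAAAAAAAtcagttcct
A run of 10 or more A stood in a transcript of these 4 of the 16 genes tested (25.0%), against 27.1% of the 11140 other protein-coding genes tested, whose transcripts are longer, with a median of 3445 bases against 1202.5. Over all 67 histone genes the share was 5.97%, against 20.9% of the 21752 other protein-coding genes, and these shares are not corrected for length. Whether any count came from priming at these runs was not tested.

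Each of 17 H2A genes holds a predicted miRNA gene of 129 to 144 bases on the opposite strand within its exon. In none of the 102 pairs of library values did the nested gene have more counts than the histone gene around it, as where a read is counted for both, and the nested counts were read as tags of the histone gene that touch this window. In Hist1h2ao the 138-base nested gene Gm19658, which ends 95 bases before the 3′ end, had 28 of 35 counts in J110 and 107 of 111 in SSM3. In Hist1h2ap, the neighbour with the same A run, the nested gene Gm44466 had 1 of 386 counts in J110 and 21 of 331 in SSM3. Read this way, most tags of Hist1h2ao touched the window within the coding sequence and almost all of Hist1h2ap lay outside it. In Hist1h2ag the nested gene had 24 of 44 and 13 of 18 counts, in Hist1h2ae 32 of 66 and 29 of 44, and in Hist1h2ac 0 of 72 and 0 of 102.

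**Figure D4:**
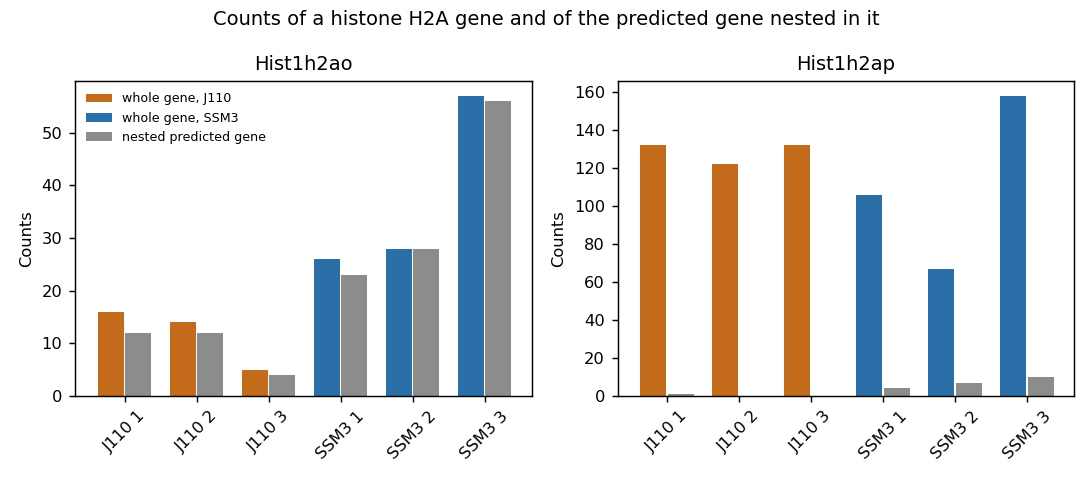
Raw counts per library of Hist1h2ao (left) and Hist1h2ap (right) as coloured bars, orange for J110 and blue for SSM3, with the counts of the 138-base predicted gene nested in each as grey bars. In Hist1h2ao the grey bars reach from 12 of 16 counts in J110 replicate 1 to 28 of 28 in SSM3 replicate 2, and in Hist1h2ap they stay at 10 counts or fewer.

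Histone genes of a family are near copies of each other, and reads can be hard to place between them. Of the 67 genes, 61 shared at least 1 stretch of 75 bases, the read length, with a transcript of another gene, with a median of 42.0% of their stretches shared. Of the 16 tested, 15 did so, from 1.47% in Hist1h1d and 6.66% in Hist1h1c to 92.6% in Hist1h2ap and 93.1% in Hist1h2ao. Hist2h2be shared none, so no read of that length from its transcript matches an annotated transcript of another gene. How the authors' counting placed reads that match several genes is not given in the sources used here, so the values of Hist1h2ap, Hist1h2ao and Hist1h2ag (77.6%) are uncertain between these genes and their copies.

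Histone genes of the H2A and H2B families often stand head to head over a shared promoter. Among the 67 genes there were 13 pairs of divergent neighbours with starts at most 1000 bases apart, 12 of them an H2A with an H2B gene, with gaps of 175 to 659 bases. Some pairs were close in counts, all of them low, such as Hist1h2an and Hist1h2bp with 12 and 11, and others were far apart. Hist1h2ac and Hist1h2bc, 250 bases apart, had 174 and 2509 counts over the 6 libraries, and neither was called between the lines. Hist1h2ap had 717 counts and its partner Hist1h2br none, Hist1h2ao had 146 and Hist1h2bq 2, and Hist2h2be had 196 and Hist2h2ac 18. Since the libraries sample polyadenylated forms, these counts do not compare how much the genes of a pair are transcribed.

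The gap between Hist1h2ac and Hist1h2bc is shown because it is the only one with both genes tested. The 150 bases before the RefSeq start of Hist1h2ac, at chr13:23683960-23684109 on the minus strand of GRCm38.p6, read as follows, with the TATAAA and CCAAT motifs in capitals, the latter also as its reverse complement ATTGG.
Hist1h2ac: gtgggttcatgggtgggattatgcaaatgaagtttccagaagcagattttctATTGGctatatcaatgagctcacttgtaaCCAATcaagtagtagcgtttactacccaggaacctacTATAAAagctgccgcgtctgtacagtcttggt
Within 250 bases before the start and on either strand, TATAAA stood in 29 of the 63 RefSeq promoters matched to histone genes (46%) and in 12.4% of all 32851 promoters. CCAAT stood in 52 of the 63 (82.5%) and in 33.8% of all promoters. Of the 15 matched promoters of genes that were tested, 7 held TATAAA and 13 held CCAAT. Hist1h2be, with promoters at 23585971 to 23586120 and 23621095 to 23621244, was counted once for each. Hist1h2bc and Hist2h2be had no matched promoter.

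The replacement and other variant histones are in large part made outside S phase too, from polyadenylated mRNAs, although H2afx is known to make a stem-loop mRNA as well and Cenpa is made mainly in G2. Of 16 listed, 10 were tested, with 5 higher in SSM3, 4 lower and H3f3a not called (563 ± 9.93 and 544 ± 40.7 CPM). Their CPM summed to 3808 ± 29.5 in J110 and 3932 ± 95.7 in SSM3, a log2 ratio of 0.05. H2afj rose from 82.3 ± 3.41 to 325 ± 18.9 CPM (log2 fold change 1.98, SE 0.08, adjusted p = 8.57e-13), H2afv from 115 ± 5.93 to 245 ± 5.24, and H2afz, an H2A variant of promoters, from 586 ± 20.5 to 1036 ± 60.4. H1f0, the linker histone associated with differentiated cells, fell from 717 ± 41.2 to 206 ± 14.6 CPM (log2 fold change −1.80, SE 0.08, adjusted p = 1.88e-12), and H3f3b, which encodes replacement H3, fell from 1401 ± 25.7 to 1086 ± 15.1.

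**Figure D5:**
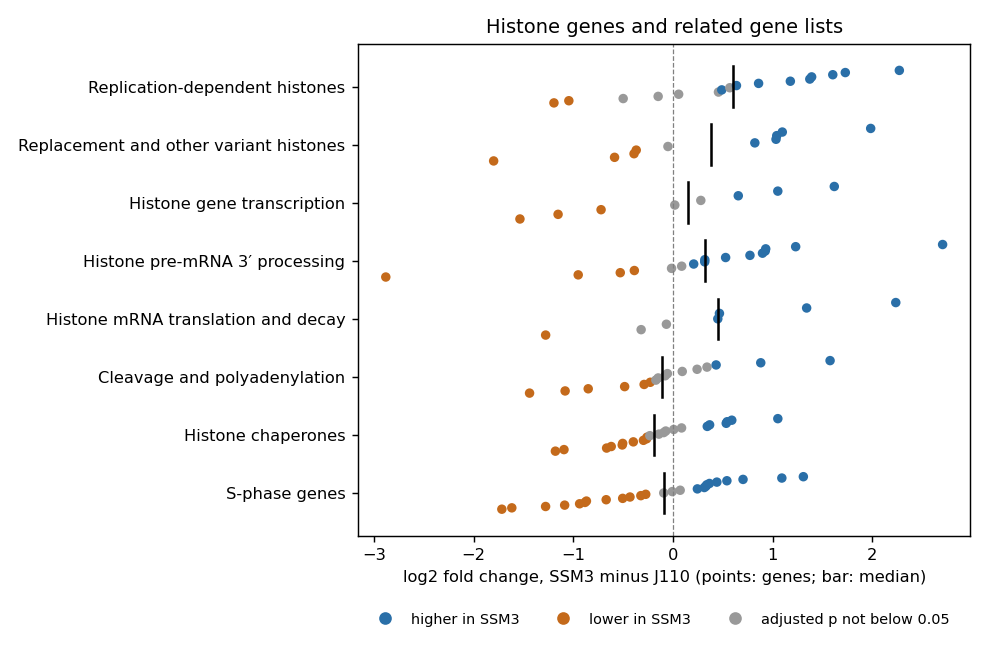
Log2 fold change, SSM3 minus J110, of each gene tested in the histone group and in 7 related lists, coloured by call, with a black bar at each median. The medians lie between −0.19 for the histone chaperones and 0.60 for the replication-dependent histones, and every list holds genes on both sides of 0.

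Genes that drive histone gene transcription split evenly, with 3 of 8 higher and 3 lower. Npat, the coactivator that binds the histone clusters, fell from 37.2 ± 3.15 to 16.8 ± 2.43 CPM (log2 fold change −1.15), and Casp8ap2, a partner of it in the histone locus body, fell from 48.7 ± 9.40 to 16.8 ± 3.00 (−1.54). The cyclin E genes moved apart, with Ccne1 at 13.7 ± 0.249 and 42.1 ± 1.70 CPM (1.62) and Ccne2 at 93.9 ± 1.4 and 56.9 ± 4.79 (−0.72). Cdk2, the kinase they activate, rose from 23.3 ± 5.29 to 48.5 ± 2.54 CPM, and Pou2f1, which encodes OCT1, had 46.6 ± 2.83 and 47.3 ± 7.0 CPM and was not called. The adjusted p-values of the 5 called genes named here were at most 3.84e-06.

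Of the 16 genes for the 3′ processing of histone pre-mRNA, 10 rose and 4 fell, against 38.6% higher and 39.2% lower over all genes tested. Slbp, which encodes the stem-loop binding protein, fell from 88.7 ± 4.80 to 45.9 ± 1.49 CPM (log2 fold change −0.95, SE 0.09, adjusted p = 4.97e-08). Lsm10, a protein of the U7 snRNP ring, rose from 17.3 ± 4.54 to 40.8 ± 2.07 CPM (1.23), and Lsm11, the other U7-specific ring protein, rose from 15.2 ± 3.81 to 26 ± 0.727 (0.77). Of the ring proteins shared with spliceosomal snRNPs, Snrpd3 rose from 105 ± 7.82 to 199 ± 9.79 CPM and Snrpb from 179 ± 15.8 to 206 ± 7.45, Snrpe had 524 ± 8.54 and 557 ± 24.3 and was not called, and Snrpf fell from 69.5 ± 5.75 to 9.63 ± 7.49 (−2.88), with 75, 49 and 9 counts in the SSM3 libraries. Zfp473, which encodes a U7-associated zinc finger protein, had 4, 3 and 4 counts in J110 and 18, 24 and 28 in SSM3 (adjusted p = 4.58e-06). It entered the test through SSM3 alone, the line in which it was high. Slbp and Lsm11 were named for their role in this step, after their values were seen.

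In the list for translation and decay of histone mRNA, 4 of 7 genes rose and Exosc10, an exosome nuclease, fell from 53.4 ± 3.14 to 22.0 ± 2.51 CPM (log2 fold change −1.28). Mif4gd, an SLBP partner in histone mRNA translation, rose from 19.2 ± 2.03 to 90.9 ± 6.49 CPM (2.24, SE 0.11, adjusted p = 1.20e-11), and Upf1, a helicase needed for histone mRNA decay, from 49.8 ± 6.68 to 126 ± 5.0 (1.34). Eri1, the exonuclease that trims the stem-loop, rose from 76.1 ± 4.51 to 104 ± 4.90 CPM, and Tut7, a uridylyl transferase, from 56.1 ± 2.83 to 77.5 ± 6.98. Among 16 genes of general cleavage and polyadenylation, 3 rose and 6 fell. Pabpc1, the cytoplasmic poly-A binding protein, fell from 3285 ± 127 to 1212 ± 147 CPM (−1.44), Papola, the canonical poly-A polymerase, from 229 ± 12.5 to 108 ± 4.49 (−1.08) and Pabpn1 from 430 ± 18.4 to 307 ± 24.0, while Cpsf1 rose from 55.9 ± 5.93 to 167 ± 6.35 (1.58).

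Of 22 histone chaperones and their partners, 6 rose and 10 fell, with a median of −0.19. Npm1 fell from 1607 ± 9.68 to 1220 ± 26.1 CPM, Set from 607 ± 14.1 to 426 ± 8.51, Nap1l1, an H2A and H2B chaperone, from 428 ± 17.6 to 201 ± 5.19 (log2 fold change −1.09) and Asf1a, an H3 and H4 chaperone, from 34.4 ± 2.68 to 15.2 ± 0.482 (−1.18). Cabin1, a subunit of the HIRA complex, rose from 27.6 ± 1.99 to 57.3 ± 7.97 CPM (1.05). The 25 S-phase genes, whose mRNAs are polyadenylated, also split, with 10 higher, 12 lower and a median of −0.09. Their CPM summed to 2786 ± 33.8 in J110 and 2536 ± 56.4 in SSM3, a log2 ratio of −0.14, against 0.37 for the histone genes. Rrm2, a subunit of ribonucleotide reductase, fell from 347 ± 17.4 to 105 ± 3.82 CPM (−1.72) and Tyms, thymidylate synthase, from 89.2 ± 4.35 to 29.0 ± 2.62 (−1.62), while Mcm7, a subunit of the replicative helicase, rose from 125 ± 2.39 to 310 ± 28.1 (1.31) and Lig1, DNA ligase, from 167 ± 17.5 to 356 ± 14.5. The sums and medians of these lists were not tested against each other. Nor were their calls tested against the shares over all genes tested, 38.6% higher and 39.2% lower.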

How the data were processed

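RNA from 3 biological replicates each of J110 and SSM3 cells was made into libraries with the QuantSeq 3′ kit, which primes on poly-A, and sequenced as single end reads. The authors trimmed adapters and poly-A with cutadapt (2.1), mapped the reads to mm10 with HISAT2 (2.0.4), counted them per gene with featureCounts of Subread (2.0.0) and deposited raw counts without normalisation. The strand setting and the handling of reads that match or overlap several genes are not given in the sources used here. The sample labels name the line and replicate, and 0 columns were left unused.

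Library sizes, summed over every gene, ran from 4200785 to 5416305 counts, so a count of 3 corresponds to 0.578 to 0.668 CPM, which covers counting error only. Genes were filtered with filterByExpr (minimum count 10), scaled with TMM factors (0.920 to 0.958 in J110, 1.05 to 1.07 in SSM3) and compared in edgeR (4.0.16, R 4.3.3) by its quasi-likelihood test, with Benjamini-Hochberg adjustment over all genes tested. Standard errors were taken as the log2 fold change over the square root of F. The biological coefficient of variation was 8.30%. Replicates differed by more than sampling noise, with chi-square values per degree of freedom from 2.29 to 6.01.

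The group, the related lists and the rule for naming genes were chosen with earlier results of these data known. The rule gives values in every library for the 5 genes of highest mean CPM, the 5 calls that moved furthest each way in log2 fold change and those called against their family. Of each related list it names the 3 genes of highest mean CPM and the 3 called with the largest absolute log2 fold change. The list genes Slbp and Lsm11 were added once their values were known.

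Stem-loops, A runs and shared stretches of 75 bases were found in the GENCODE transcripts of GRCm38, and promoter sequences came from RefSeq (GRCm38.p6), with members matched by synonym and position. On simulated counts for this comparison, 12003 genes passed the filter. The test recovered 87 of 98 genes changed by a log2 of 1 (88.8%) and 90 of 90 changed by a log2 of 2, and 18 of 195 genes called were unchanged. Alternatives covered DESeq2 (1.42.0), limma-voom (limma 3.58.1), other scalings, filters and thresholds, a block for the replicate number, and fits without each library. A genotype detail of the SSM3 mice is not reported here.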

Additional observations from a re-analysis of the deposited data

How the results depend on the processing

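Of the 11 calls, those of Hist1h3d and Hist1h4i held under every alternative. Those of Hist1h2ao, Hist1h2be and Hist2h2be held where tested, but these genes passed the filter through SSM3, and the alternative that asks for 10 counts in every library could not test them. The calls of Hist1h1c, Hist1h1d, Hist1h1e and Hist3h2a held under all but the test for changes above 2-fold, and no value of a call changed sign. The number of histone genes called higher (9) was 5 with 10 counts required in every library, 5 in the test above 2-fold (glmTreat) and 1 among genes that share no 75-base stretch, where only Hist2h2be was left. The number called lower (2) was 1 with library size only, 4 with a filter of 1 count in any library, 1 with 10 counts in every library, 1 in DESeq2, 0 in the test above 2-fold, 1 at an adjusted p below 0.01, 0 among genes with no exon overlap and 0 among those sharing no stretch. Leaving out 1 library gave 8 to 9 higher and 1 to 3 lower, with call changes in Hist1h2ag, Hist1h4h, Hist1h2ac, Hist1h2ae and Hist1h2ap. In the test above 2-fold, 2094 genes of all were higher and 2178 lower, and 7 and 8 of the related lists. The log2 ratio of summed CPM, 0.37, was 0.55 with library size only, which moves the median of all genes from −0.014 to 0.16, 0.50 without Hist1h2bc and 0.33 to 0.41 without 1 library. With library size only, Hist1h2bc (0.23, adjusted p = 0.0195) and Hist1h2ac (0.74, adjusted p = 0.0316) were called higher and Hist1h2ag lost its call (adjusted p = 0.0585). DESeq2 lost Hist1h2ag (adjusted p = 0.0804) and Hist1h4h (adjusted p = 0.152). The cause of a lost call was not tested.

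The labels give both lines replicates 1 to 3, but deviations of samples with the same number correlated by 0.0118 to 0.0268 only, so the numbers were not taken to pair the samples. Each sample correlated best with its own number, a hint from the data and not from the design. With the replicate number as a block, 8 histone genes were higher and 2 lower, and Hist1h4h was lost (adjusted p = 0.0616). At these depths, 51 of the 67 genes could not be tested with the main filter, and a difference in them may not be detectable.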
